A study of Mus musculus with 8 samples.

Results

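The mouse microRNAs mmu-miR-146a, mmu-miR-146b and mmu-miR-155 were followed through small RNA libraries of immortalized skin fibroblasts. Every microRNA entry of the deposited table that carries one of these names, on either arm of its hairpin, was taken, which gave 5 entries of the 2403 small RNAs listed (813 of them microRNAs). They were miR-146a-5p, miR-146b-5p, miR-155-5p, miR-146b-3p and miR-155-3p, and miR-146a-3p was not analysed here. The cells carried the mir210lox/lox genotype (samples titled KO) or were WT, both on C57BL/6, and were kept for 24 h at 1% O2 (hypoxia) or at 21% O2 (normoxia). The 4 groups, KO hypoxia, KO normoxia, WT hypoxia and WT normoxia, held 2 libraries each, numbered 1 and 2 in the titles. What the number stands for, how the lox allele was recombined and whether a group's libraries came from separate cultures are not stated in the labels, so each p-value covers just the variation among these libraries, and that may be technical. The design addresses how oxygen and miR-210 bear on the small RNAs of these cells.

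miR-146a and miR-155 are best known from inflammation, where the transcription factor NF-kB raises both after Toll-like receptor or cytokine signals. miR-146a and its relative miR-146b repress the adaptor proteins IRAK1 and TRAF6 and so dampen the same signal, whereas miR-155 represses inhibitors such as SOCS1 and SHIP1 and tends to prolong it. Both are abundant in activated immune cells and are also made by fibroblasts exposed to cytokines.

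The mature 5p sequences are shown because miR-146a and miR-146b share a seed, the part that pairs with target RNAs, while that of miR-155 differs. Capitals mark the seed, bases 2 to 8 from the 5′ end, and the sequences are those of RefSeq on GRCm38.p6.
miR-146a-5p: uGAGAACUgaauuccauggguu
miR-146b-5p: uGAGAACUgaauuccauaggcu
miR-155-5p: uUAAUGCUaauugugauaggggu
The seed GAGAACU belongs to 2 of the 1679 mature mouse microRNA names in the RefSeq table, miR-146a-5p and miR-146b-5p, and UAAUGCU to miR-155-5p alone. The miR-146 arms are each 22 bases long and identical at 20 positions. Counted from 1 at the 5′ end of miR-146a-5p, they differ by G18A and U21C, both outside the seed. Sequencing reads can therefore be assigned to miR-146a-5p or miR-146b-5p only through their last bases. A sequencing error or a trimmed end there could move a read in either direction.

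The hairpins are shown because the loci differ outside the shared arm. Capitals mark the mature arms in each.
Mir146: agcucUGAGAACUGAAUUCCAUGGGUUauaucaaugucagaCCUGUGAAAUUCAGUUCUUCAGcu
Mir146b: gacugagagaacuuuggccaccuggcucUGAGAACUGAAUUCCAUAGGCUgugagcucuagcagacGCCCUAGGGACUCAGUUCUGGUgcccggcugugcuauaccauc
Mir155: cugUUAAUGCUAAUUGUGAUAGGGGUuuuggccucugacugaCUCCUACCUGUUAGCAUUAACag
In GRCm38.p6 Mir146, the gene of miR-146a, lies at chr11:43374397-43374461 on the minus strand, and no other gene of GENCODE M21 overlaps it. Mir146b lies at chr19:46342762-46342870 on the plus strand, inside the protein-coding gene Mfsd13a on the same strand and outside its annotated exons. Mir155 lies at chr16:84714140-84714204 on the plus strand, in exon 2 of both overlapping transcripts of its noncoding host gene Mir155hg. The deposited table gives coordinates that differ from these, on a build not given in the sources used here, and its sequence of each of the 5 arms is the RefSeq one with 1 more base at either end.

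The values are the authors' normalized read counts, rounded to whole numbers. They summed to 8618630 to 12167438 per library, with 10324869 to 12167438 in the 4 libraries numbered 2 and 8618630 to 9928948 in the 4 numbered 1. miR-210-3p, the microRNA named in the genotype, lay at 10 to 32 in the KO libraries. It lay at 4786 and 8676 in WT normoxia and at 36738 and 39011 in WT hypoxia, which fits the titles. Ribosomal RNA took 5.76% of KO hypoxia number 1 and 1.69% to 2.88% of each other library. Of the 5 arms, 4 held at least 10 in at least 2 libraries and were tested among 1540 small RNAs. miR-146b-3p, with 0 to 6, was not tested.

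miR-146b-5p was the most abundant of the 5 arms. Its mean over the 8 libraries was 26744 normalized reads, which put it at rank 40 of the 813 microRNAs. miR-155-5p followed with a mean of 5573 (rank 80) and miR-146a-5p with 1220.5 (rank 145). All 3 are 22 or 23 bases long, so their levels were compared without a correction for length. miR-155-3p averaged 10.1 and miR-146b-3p 2.13. Summed over the libraries the 5p arm of miR-146b held 213953 reads against 17 on its 3p arm, and the 5p arm of miR-155 held 44581 against 81. Both microRNAs were thus seen almost wholly as their 5p arm. The order of the levels did not hold in every library. The means of miR-146b-5p and miR-155-5p lay apart in the libraries numbered 2 and close together in those numbered 1.

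miR-146b-5p separated the libraries by their number, in every genotype and oxygen level. In KO hypoxia it held 43003 in number 2 and 6928 in number 1, and in KO normoxia 41225 in number 2 and 6668 in number 1. In WT hypoxia it held 52077 in number 2 and 12858 in number 1, and in WT normoxia 43476 in number 2 and 7718 in number 1. The lowest number 2 library thus lay above the highest number 1 library. The ratio of number 2 to number 1 was 6.21 in KO hypoxia, 6.18 in KO normoxia, 4.05 in WT hypoxia and 5.63 in WT normoxia. As a share of all reads, miR-146b-5p made up 0.386% of KO hypoxia number 2 (95% exact binomial interval 0.383% to 0.390%) and 0.0718% of KO hypoxia number 1 (0.0701% to 0.0735%). For these intervals the deposited values were taken as read numbers, so they hold counting error and nothing else. In bulk RNA, fewer cells that make a microRNA and less of it per cell cannot be told apart.

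miR-146a-5p, with the same seed, split the libraries the same way. It held 2916 in KO hypoxia number 2 and 496 in number 1, 1293 in KO normoxia number 2 and 402 in number 1, 1534 in WT hypoxia number 2 and 695 in number 1, and 1893 in WT normoxia number 2 and 535 in number 1. KO hypoxia number 2 was the highest library, and the numbers did not overlap. The ratios of number 2 to number 1 ran from 2.21 (WT hypoxia) to 5.88 (KO hypoxia). miR-146b-5p held 14.0 to 33.9 times the value of miR-146a-5p, and whether its reads entered the values of miR-146a-5p was not tested.

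miR-155-5p lay the other way round. It held 4536 in KO hypoxia number 2 and 7012 in number 1, 3647 in KO normoxia number 2 and 6487 in number 1, 3646 in WT hypoxia number 2 and 6940 in number 1, and 3589 in WT normoxia number 2 and 8724 in number 1. Every number 2 library was lower than every number 1 library, and the ratios of number 1 to number 2 ran from 1.55 (KO hypoxia) to 2.43 (WT normoxia). The sparse arm miR-155-3p held 2, 8, 0 and 6 in the number 2 libraries of KO hypoxia, KO normoxia, WT hypoxia and WT normoxia, against 9, 14, 22 and 20 in the number 1 libraries. Its 0 in WT hypoxia number 2 leaves room for a share up to 2.47e-05%, which is 3 counts of that total. miR-146b-3p held 2, 2, 5 and 6 in the number 2 libraries of the same groups and 1, 1, 0 and 0 in number 1, where the 0 in WT hypoxia allows up to 3.02e-05% and that in WT normoxia up to 3.06e-05%. Both 3p arms thus lay on the same side as their 5p arms, at counts of 22 or fewer.

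**Figure D1:**
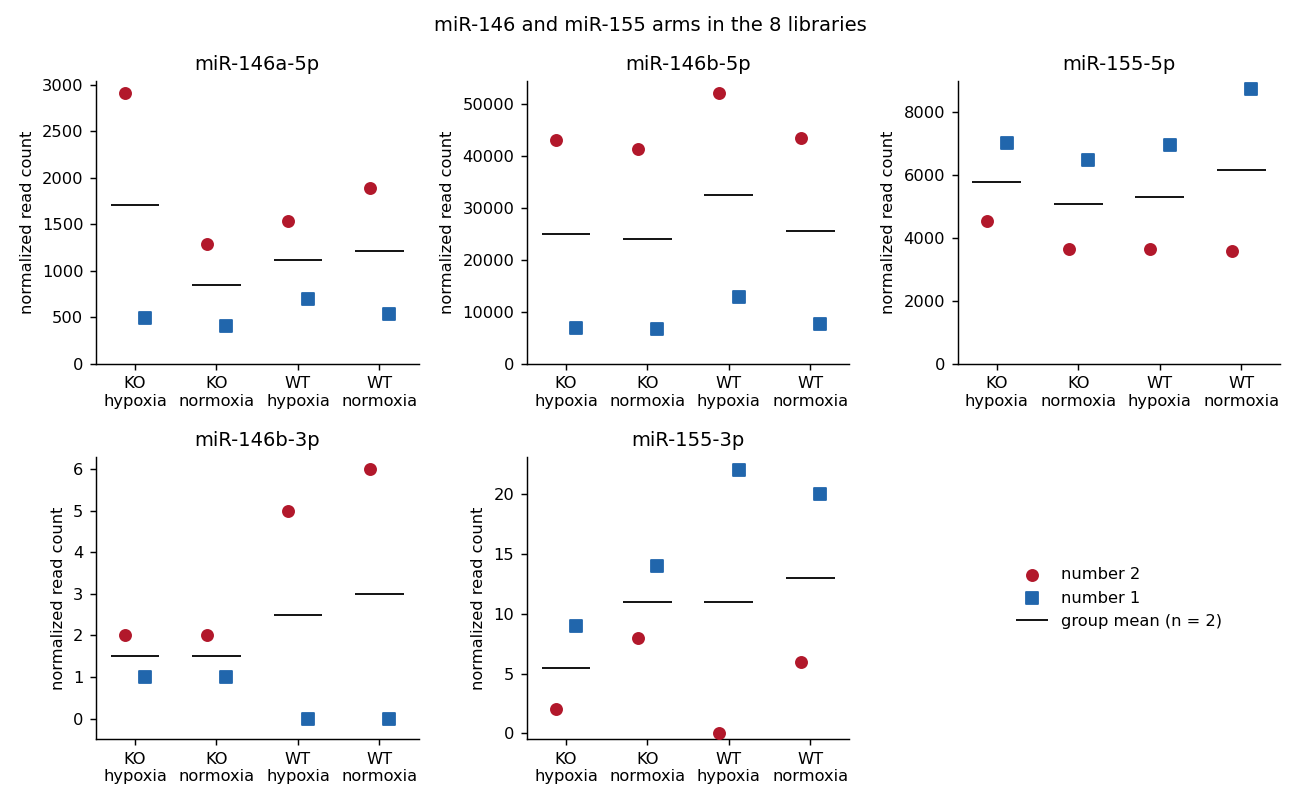
Normalized read counts of the 5 arms (vertical axes, linear) in KO hypoxia, KO normoxia, WT hypoxia and WT normoxia, with circles for libraries numbered 2, squares for libraries numbered 1 and a line at each group mean (n = 2). miR-146a-5p and miR-146b-5p are higher in all 4 libraries numbered 2, and miR-155-5p is lower in all 4.

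Over the 4 groups miR-146b-5p averaged 44945 ± 4852 in number 2 and 8543 ± 2911 in number 1 (SD, n = 4 each). miR-146a-5p averaged 1909 ± 715 in number 2 and 532 ± 122 in number 1, and miR-155-5p 3854.5 ± 455 in number 2 and 7291 ± 983 in number 1. All 5 arms separated the numbers without overlap, as did 12.6% of the 1540 features tested. A limma fit with the number as a term beside the 4 group means, chosen after these values had been seen, gave log2 differences of 2.44 (SE 0.16, adjusted p = 5.10e-05) for miR-146b-5p, 1.80 (SE 0.22, adjusted p = 0.00332) for miR-146a-5p and −0.92 (SE 0.16, adjusted p = 0.0168) for miR-155-5p. miR-155-3p, at −2.15 (SE 0.59), did not pass (adjusted p = 0.0590). The 95% intervals were 2.08 to 2.81 for miR-146b-5p, 1.30 to 2.30 for miR-146a-5p and −1.28 to −0.55 for miR-155-5p. Of all features tested 6.49% passed, 78 (5.06%) higher and 22 (1.43%) lower in number 2, and of the 579 microRNAs among them 12.3%. When the values were scaled to the microRNA total, the median of all features stood at −0.30 in place of 0.01, and 248 passed, 34 of them higher. There the differences of miR-146b-5p, miR-146a-5p and miR-155-5p were 2.13, 1.49 and −1.23, and all 3 passed.

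Against the other features, miR-146b-5p had the smallest p of the 1540 and the second largest difference by size. Among the 472 features with a mean of at least 1000, miR-146b-5p ranked 1, miR-146a-5p 2 and miR-155-5p 20 by size. In this fit, leaving out 1 library takes its whole group out of the number difference. Leaving out either library of a group therefore gives the same difference, and these are not separate checks. The call of miR-146b-5p held in every alternative and without each library in turn. That of miR-146a-5p was lost only when KO hypoxia number 1 and KO normoxia number 2 were both left out (1.48, limma adjusted p = 0.0655). The call of miR-155-5p was lost when 1 of 5 libraries was left out, namely WT normoxia number 2 (−0.80), KO normoxia number 2 (−0.95), WT hypoxia number 2 (−0.91), WT hypoxia number 1 (−0.91) or WT normoxia number 1 (−0.80), with limma adjusted p = 0.0501 to 0.138. The count of features that passed was 4 to 50 in place of 100, whichever of the 8 libraries was left out, and was lowest without WT hypoxia number 2.

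**Figure D2:**
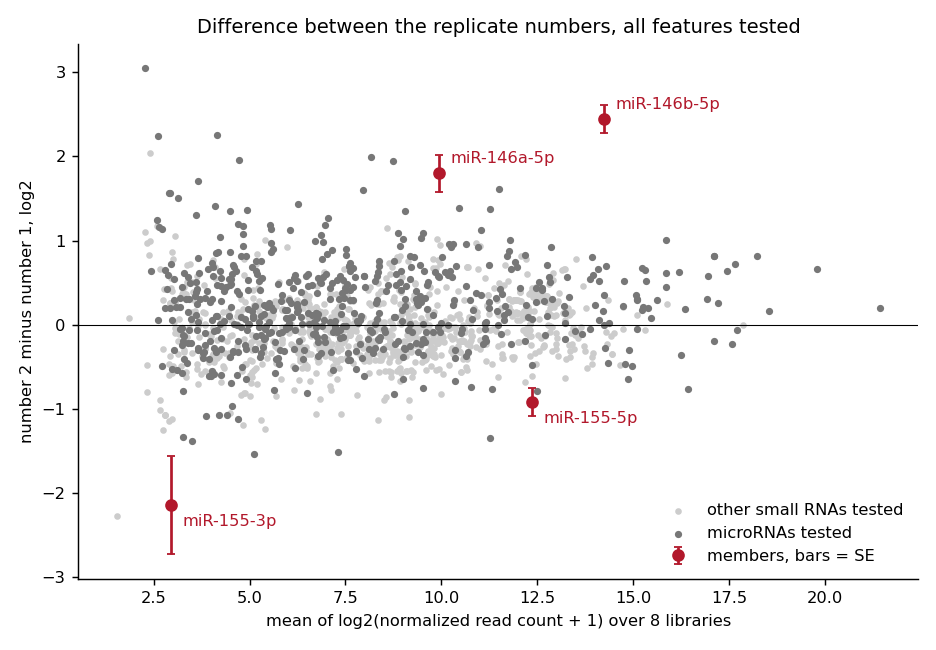
Log2 difference of number 2 minus number 1 (vertical axis) against the mean of log2(normalized read count + 1) over the 8 libraries (horizontal axis) for the 1540 features tested, with the 4 tested arms in red and bars for the SE. miR-146b-5p at 2.44 and miR-146a-5p at 1.80 rank 1 and 2 by size among the 472 features with a mean of at least 1000, and miR-155-5p at −0.92 lies below 0.

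Since miR-146b-5p and miR-155-5p moved in opposite directions, their ratio separated the numbers further. miR-146b-5p exceeded miR-155-5p 9.48-fold in KO hypoxia number 2, 11.3-fold in KO normoxia number 2, 14.3-fold in WT hypoxia number 2 and 12.1-fold in WT normoxia number 2. In number 1 the ratio was 0.988 in KO hypoxia, 1.03 in KO normoxia, 1.85 in WT hypoxia and 0.885 in WT normoxia. miR-146b-5p was thus the more abundant in all 4 libraries numbered 2, and in number 1 the ratio was near 1 except in WT hypoxia. The ratio of miR-146b-5p to miR-146a-5p was 14.7 in KO hypoxia number 2, 31.9 in KO normoxia number 2, 33.9 in WT hypoxia number 2 and 23.0 in WT normoxia number 2. In number 1 it was 14.0 in KO hypoxia, 16.6 in KO normoxia, 18.5 in WT hypoxia and 14.4 in WT normoxia. It varied between libraries. The ratio of miR-199a-3p to miR-199b-3p stood at 0.999 to 1.00 in every library. Those sequences are identical, so that ratio cannot show how reads of arms that differ at 2 positions were assigned.

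**Figure D3:**
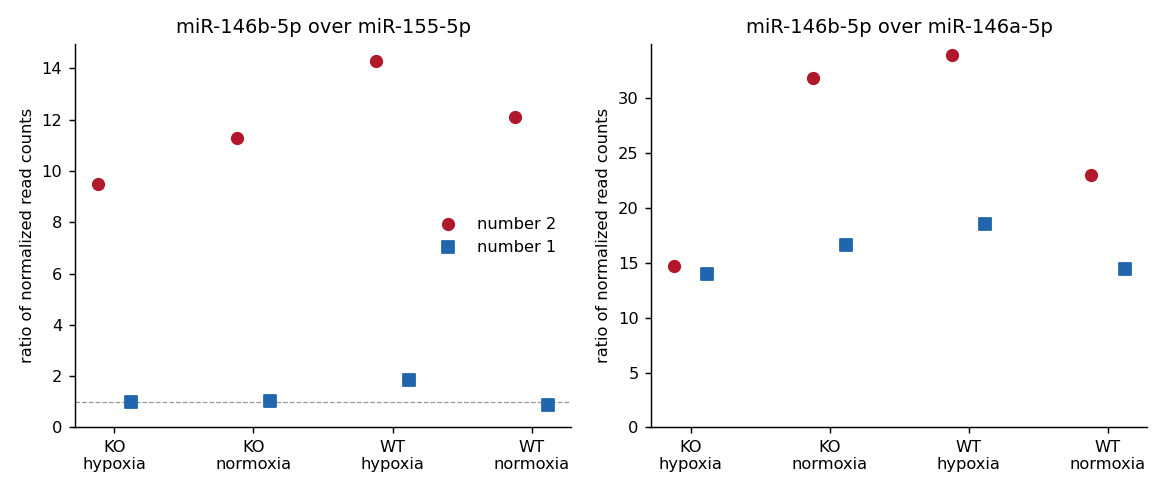
Ratio of normalized read counts (vertical axes, linear) of miR-146b-5p to miR-155-5p on the left and of miR-146b-5p to miR-146a-5p on the right, by group, with circles for number 2, squares for number 1 and a dashed line at 1. The left ratio is 9.48 to 14.3 in number 2 and 0.885 to 1.85 in number 1.

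With hypoxia in KO cells all tested arms stayed within the spread of their groups. miR-146b-5p averaged 24965.5 ± 25509 in KO hypoxia and 23946.5 ± 24436 in KO normoxia (SD, n = 2 each), a log2 difference of 0.06 (SE 1.14, 95% interval −2.50 to 2.62). Within number 2 the difference was 0.06 and within number 1 it was 0.06. miR-146a-5p averaged 1706 ± 1711 in KO hypoxia and 847.5 ± 630 in KO normoxia, a difference of 0.74 (SE 0.89), with 1.17 within number 2 and 0.30 within number 1. miR-155-5p averaged 5774 ± 1751 in KO hypoxia and 5067 ± 2008 in KO normoxia, a difference of 0.21 (SE 0.49), with 0.31 within number 2 and 0.11 within number 1. The sparse miR-155-3p gave −1.08 (SE 1.29). None of the 4 passed (limma, adjusted p = 0.960 to 0.999), and 0% of all features did, with 83 at an unadjusted p under 0.05. The groups overlapped for all 5 arms, and 28.9% of the features tested did not overlap.

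In WT cells the same comparison gave no call either. miR-146b-5p averaged 32467.5 ± 27732 in WT hypoxia and 25597 ± 25285 in WT normoxia, a log2 difference of 0.50 (SE 1.14, 95% interval −2.06 to 3.06). It was 0.26 within number 2 and 0.74 within number 1. miR-146a-5p averaged 1114.5 ± 593 in WT hypoxia and 1214 ± 960 in WT normoxia, a difference of 0.04 (SE 0.89), with signs that differed between number 2 (−0.30) and number 1 (0.38). miR-155-5p averaged 5293 ± 2329 in WT hypoxia and 6156.5 ± 3631 in WT normoxia, a difference of −0.15 (SE 0.49), with 0.02 within number 2 and −0.33 within number 1. miR-155-3p gave −1.34 (SE 1.29). limma gave adjusted p = 1.00 for all 4, and 0% of all features passed, with 20 at an unadjusted p under 0.05. miR-210-3p was among the features not called, at 36738 and 39011 in WT hypoxia against 4786 and 8676 in WT normoxia. The lack of a call therefore does not show that the arms were unchanged. All 5 arms overlapped between the groups, where 25.8% of features did not.

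No difference between KO and WT cells in these microRNAs exceeded the spread. In hypoxia the log2 difference of KO minus WT was −0.58 (SE 1.14) for miR-146b-5p, with −0.28 within number 2 and −0.89 within number 1. It was 0.22 (SE 0.89) for miR-146a-5p, with 0.93 within number 2 and −0.49 within number 1. It was 0.16 (SE 0.49) for miR-155-5p, with 0.32 within number 2 and 0.01 within number 1. In normoxia miR-146b-5p gave −0.14 (SE 1.14), with −0.08 within number 2 and −0.21 within number 1. miR-146a-5p gave −0.48 (SE 0.89), with −0.55 within number 2 and −0.41 within number 1. miR-155-5p gave −0.20 (SE 0.49), with 0.02 within number 2 and −0.43 within number 1. miR-155-3p gave 0.19 (SE 1.29) in hypoxia and −0.06 (SE 1.29) in normoxia. No arm passed in hypoxia (limma, adjusted p = 0.967 to 0.987, with 0.13% of all features called) or in normoxia (0.882 to 0.981, with 0.0649% called). The groups overlapped for all 5 arms, while 35.8% of features in hypoxia and 41.9% in normoxia did not overlap. The values of miR-146b-5p within a number ran from −0.89 to −0.08. The share of all features with 4 negative values was not counted, and their median was −0.06 in normoxia and −0.04 in hypoxia. Among the microRNAs alone the median was −0.28 in normoxia, below miR-146b-5p at −0.14, and −0.045 in hypoxia. On the microRNA total, where the median of all features in normoxia stood at 0.17, the difference of group means of miR-146b-5p in normoxia turned to 0.09.

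**Figure D4:**
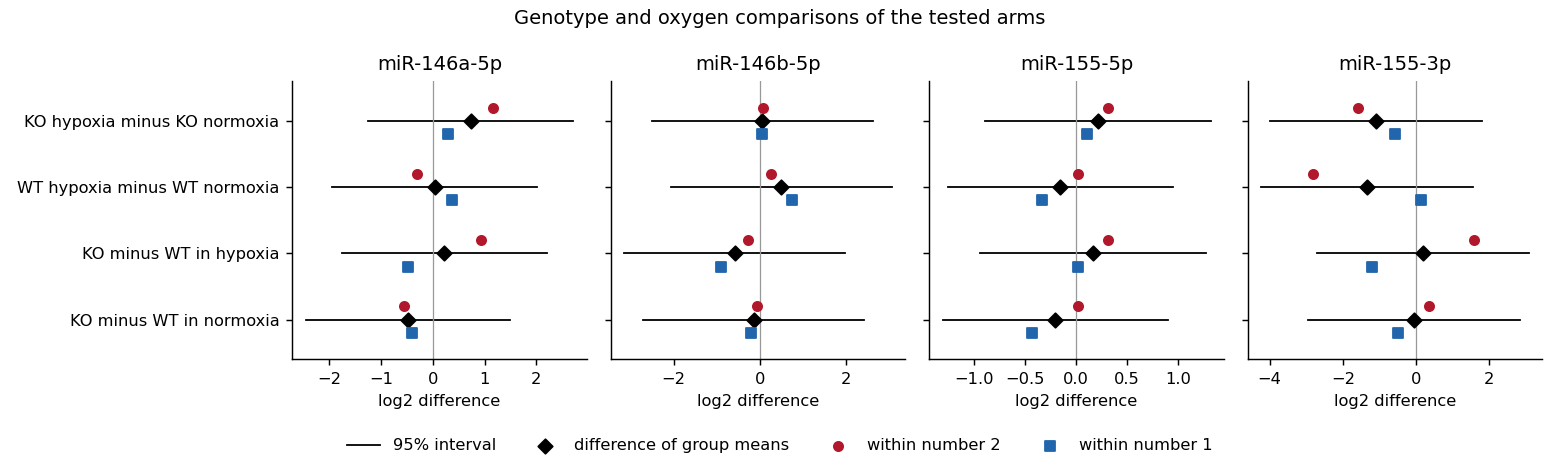
Log2 differences (horizontal axes) of the 4 tested arms in the 4 pairwise comparisons, with diamonds for the difference of group means, lines for its 95% interval from limma, circles for the difference within number 2 and squares for that within number 1. Each interval includes 0, and for miR-146b-5p the values within a number lie between −0.89 and 0.74.

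Averaged over oxygen levels, KO minus WT was −0.36 (SE 0.81) for miR-146b-5p, −0.13 (SE 0.63) for miR-146a-5p, −0.02 (SE 0.35) for miR-155-5p and 0.07 (SE 0.91) for miR-155-3p (limma, adjusted p = 0.883 to 0.980, with 0.13% of features called). The KO and WT libraries overlapped for all 5 arms, and 11.9% of features did not overlap. Averaged over genotypes, hypoxia minus normoxia was 0.28 (SE 0.81), 0.39 (SE 0.63), 0.03 (SE 0.35) and −1.21 (SE 0.91) in the same order (adjusted p = 0.998, 0% called, 55 features at an unadjusted p under 0.05). Hypoxia and normoxia also overlapped for all 5 arms, and 1.23% of features did not overlap. The interaction, the KO response to hypoxia minus the WT response, was −0.44 (SE 1.62) for miR-146b-5p, 0.70 (SE 1.25) for miR-146a-5p, 0.37 (SE 0.70) for miR-155-5p and 0.25 (SE 1.83) for miR-155-3p (adjusted p = 1.00, 0% called, 37 at an unadjusted p under 0.05). For miR-146b-5p the 95% interval of the interaction was −4.06 to 3.18, from a fit that leaves the split by number in the spread. The other comparisons of genotype and oxygen came from the same fit, so their SEs hold that split too.

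Ratios between the arms were compared over 4 libraries against 4 by exact two-sided permutation tests, in which the smallest p is 0.0286. Libraries were permuted without regard to their number, so the split by number stayed in the spread. The log2 ratio of miR-146a-5p to miR-146b-5p averaged −4.18 ± 0.55 in KO and −4.42 ± 0.52 in WT (SD, n = 4 each, exact p = 0.543). That of miR-155-5p to the sum of both miR-146 arms averaged −1.77 ± 1.93 in KO and −2.11 ± 1.97 in WT (exact p = 0.629). The log2 ratio of miR-155-5p to miR-155-3p was 10.02 ± 1.54 in hypoxia and 8.78 ± 0.15 in normoxia (exact p = 0.200), the smallest p of the 10 tests. Its hypoxia mean includes WT hypoxia number 2, where miR-155-3p was 0 and the ratio rests on the pseudocount. The difference of 1.24 was 0.64 without that library and 0.47 with a pseudocount of 8. Adjusted over the 10, the p-values lay between 0.889 and 0.914, so no ratio passed for genotype or oxygen.

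The microRNAs with the most similar pattern were taken by Pearson's r of the log2 values over the 8 libraries, as a description. For miR-146b-5p they were miR-101a-5p (r = 0.984), miR-185-5p (0.975) and miR-5114 (0.973). For miR-146a-5p they were miR-101a-5p (0.938), miR-3084-5p (0.936) and miR-139-5p (0.935), and for miR-155-5p they were miR-135b-5p (0.937), miR-3473c (0.892) and miR-1949 (0.876). Since the libraries fall into sets of 4 by number for all 3 arms, r also takes in that split. miR-101a-5p held 201 to 206 in number 2 and 76 to 89 in number 1. The sparse miR-5114 held 11 to 15 in number 2 and 0 to 1 in number 1, so it met the filter through number 2 alone. miR-135b-5p held 64 to 151 in number 2 and 251 to 287 in number 1. miR-3473c overlapped, with 8 to 21 in number 2 and 19 to 35 in number 1. In the number term miR-3473c, miR-3084-5p and miR-1949 did not pass (limma, adjusted p = 0.0597, 0.0971 and 0.108).

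Other microRNAs known to respond to Toll-like receptor or cytokine signals were set beside these arms. Of 25 listed entries 24 were tested, and in the number term 1 passed as higher (miR-212-5p, 0.71, SE 0.18, limma adjusted p = 0.0475) and 1 as lower (let-7e-3p, −0.76, SE 0.17, adjusted p = 0.0336), both named after their values were seen. The list had 16 positive and 8 negative differences. Its median was 0.13, against 0.01 over all features and 0.20 over the 579 microRNAs tested. On the microRNA total, which lowers all features in number 2, the median of the list was −0.18 against −0.30 over all features, and 8 differences were positive and 16 negative. The list had 0 calls in either direction with no filter, after quantile normalization and without an intensity trend, and 3 higher and 1 lower among microRNAs alone. With 1 library left out, 1 list entry passed as higher without KO normoxia number 2 or KO normoxia number 1, and 0 passed without any 1 of the other 6. The most abundant entries gave 0.19 (SE 0.14) for miR-21-5p, 0.17 (SE 0.15) for miR-125b-5p, −0.36 (SE 0.27) for miR-221-3p and 0.18 (SE 0.16) for miR-125a-5p, none of which passed. miR-147, a microRNA induced in stimulated macrophages and singled out after its values were seen, had no overlap of the numbers on either arm. Its 5p arm held 12 to 29 in number 2 and 3 to 11 in number 1 (log2 difference 1.70, limma adjusted p = 0.0508). Its 3p arm held 9 to 17 in number 2 and 1 to 6 in number 1 (1.57, limma adjusted p = 0.0617), so neither passed. The 3p arm met the filter only through libraries numbered 2, where it is high. Its difference and its lack of overlap are therefore not independent of the filter. Of the 1540 features tested 12.6% had no overlap of the numbers. On this list miR-21-5p and miR-212-5p, higher in number 2, and let-7e-3p, lower in number 2, had none either. In the 7 comparisons of genotype and oxygen 0 of the 24 passed.

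Marker lists of other cell types were set beside the split, since blood cells are a rich source of miR-155 and miR-146a. The 8 haematopoietic entries, of which miR-223-3p is also on the Toll-like receptor list, summed to 1091 to 2369 in number 2 and 934 to 3154 in number 1, and 0 of the 5 tested passed. Most of that sum was the erythroid miR-451, at 790 to 2986 over the 8 libraries. The leukocyte marker miR-142, the least abundant of these entries and named after its values were seen, lay at 1 to 6 on the 3p arm and 0 to 3 on the 5p arm over the 8 libraries. On the same list miR-150-5p lay at 21 to 62 and miR-223-3p, also chosen later, at 2 to 16. The 10 fibroblast and mesenchymal entries (miR-143, miR-145, miR-199 and miR-214) moved with the number. They summed to 759949 to 1277646 in number 2 and 472685 to 640851 in number 1, with 10 of 10 higher, in every alternative too. Their median was 0.78, against 0.20 over the 579 microRNAs tested, and 7 passed the threshold. miR-199a-3p and miR-199b-3p, identical in sequence and near equal in every library, both enter the sum and the count of 10. Both are also among the 7. That count was 2 on the microRNA total, 4 after quantile normalization, 1 without an intensity trend, 2 without KO hypoxia number 2 or KO hypoxia number 1, and 0 when any 1 WT library was left out. The epithelial entries summed to 236 to 290 in number 2 and 100 to 150 in number 1, with 1 of 5 past the threshold (miR-205-5p, 1.19, SE 0.26, limma adjusted p = 0.0296) and 0 when any 1 of the 8 libraries was left out. Endothelial entries summed to 102 to 191 in number 2 and 117 to 153 in number 1, and muscle entries to 116 to 206 in number 2 and 142 to 292 in number 1, with 0 of 5 past the threshold. The part of these shifts, and of the higher totals in number 2, in the split of miR-146 and miR-155 was not tested. Between genotypes the fibroblast sum was 472685 to 930476 in KO and 613277 to 1277646 in WT, and the haematopoietic sum 934 to 2336 in KO and 1662 to 3154 in WT, with 0 of the 15 tested entries past the threshold.

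**Figure D5:**
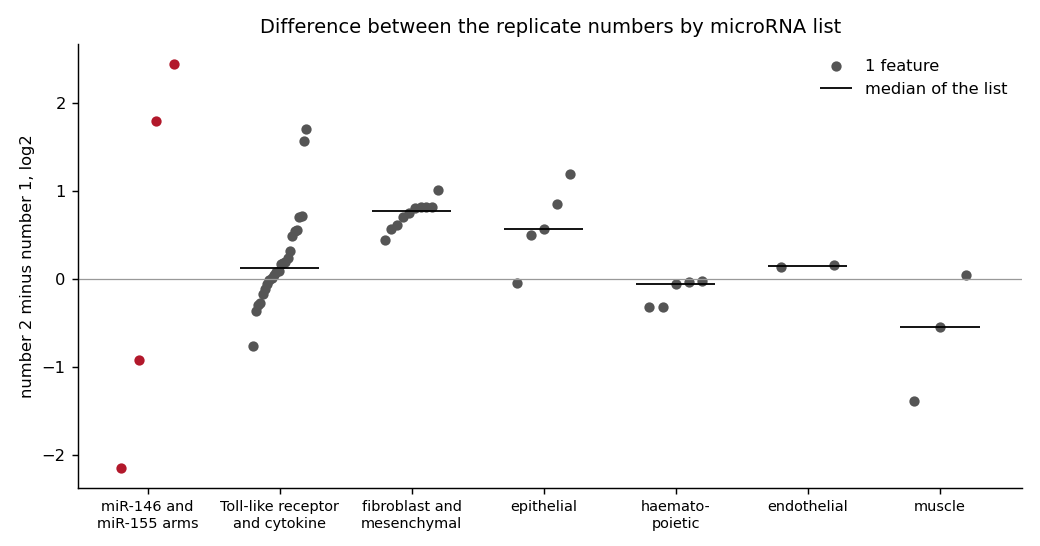
Log2 difference of number 2 minus number 1 (vertical axis) for each tested feature of the lists named on the horizontal axis, with the 4 tested miR-146 and miR-155 arms in red and a line at the median of each other list. The fibroblast and mesenchymal entries lie between 0.44 and 1.01, below miR-146b-5p at 2.44.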

How the data were processed

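Small RNA of 8 samples was sequenced from miRNeasy extracts, and per the labels a NEB kit made for SOLiD instruments was used. The deposited values are a score: normalized read counts that the authors rounded to whole numbers. Not given in the sources used here were the trimming, the aligner, the build, how reads with more than 1 match were handled, and the normalization. Totals of 8618630 to 12167438 set the depth.

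Features with at least 10 in at least 2 libraries (1540 of 2403) were fitted with limma 3.58.1 in R 4.3.3, with an intensity trend, on log2(value + 1) with 4 group means (4 residual and 5.64 prior degrees of freedom). Benjamini-Hochberg adjustment ran over all features, with a threshold of 0.05. Differences are on that log2 scale and understate changes of low features. The number term was added with 3 residual and 7.02 prior degrees of freedom. The fit of group means was tried on simulated data for KO minus WT in normoxia. Those data had the same SD for all features and no difference between the numbers, so the number term was not tested. Ratios used a pseudocount of 1, and 10 tests were made where 12 had been planned, since miR-146a-3p was not analysed here. Sequences are from RefSeq, which matched 556 of 813 microRNAs.

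Named features were all members, the 3 microRNAs most like each 5p arm, and up to 4 per list by mean, besides those said to be chosen later. Members and lists were chosen with earlier results of these data known. Alternatives were other pseudocounts, filters, scalings and fits, the replicate number as a block, and leaving out libraries.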

Additional observations from a re-analysis of the deposited data

How the results depend on the processing

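Under the alternatives, 0 of the 28 differences of a member arm in the 7 comparisons of genotype and oxygen gained a call, and their signs, all uncalled, turned in 100 of 541 values. On the microRNA total, the sign turned for miR-146b-5p to −0.086 in KO hypoxia minus KO normoxia, miR-146a-5p to −0.025 in WT hypoxia minus WT normoxia, miR-146b-5p to 0.093, miR-155-3p to 0.15 and miR-155-5p to 0.035 in KO minus WT in normoxia, miR-146a-5p to 0.065 and miR-155-5p to 0.18 in mean KO minus WT, miR-155-5p to −0.073 in mean hypoxia minus normoxia. This scaling shifts all features alike: their median then stood at −0.13 in KO hypoxia minus KO normoxia, −0.046 in WT hypoxia minus WT normoxia, 0.17 in KO minus WT in normoxia, 0.13 in mean KO minus WT and −0.068 in mean hypoxia minus normoxia. After quantile normalization, the sign turned for miR-146b-5p to −0.029 in KO hypoxia minus KO normoxia, miR-155-3p to −0.22 in KO minus WT in hypoxia, miR-155-3p to 0.092 in KO minus WT in normoxia, miR-155-3p to −0.064 in mean KO minus WT, miR-155-5p to −0.012 in mean hypoxia minus normoxia, miR-155-3p to −0.31 in the interaction. With a pseudocount of 8, the sign turned for miR-155-3p to −0.25 in KO minus WT in hypoxia, miR-155-3p to −0.16 in mean KO minus WT, miR-155-3p to −0.17 in the interaction, the log2 ratio of miR-155-5p to miR-155-3p between genotypes to 0.14. With KO hypoxia number 1 and KO normoxia number 2 both left out, the sign turned for miR-155-5p to −0.52 in KO hypoxia minus KO normoxia, miR-146b-5p to 0.73, miR-155-3p to −0.68 and miR-155-5p to −0.15 in KO minus WT in hypoxia, miR-155-3p to 0.31 and miR-155-5p to 0.21 in KO minus WT in normoxia, miR-146a-5p to 0.087, miR-155-3p to −0.18 and miR-155-5p to 0.032 in mean KO minus WT, miR-155-5p to −0.33 in mean hypoxia minus normoxia, miR-146b-5p to 2.19, miR-155-3p to −0.98 and miR-155-5p to −0.36 in the interaction. Leaving out 1 library at a time moved the differences over these ranges. In KO hypoxia minus KO normoxia it was −0.54 to 2.01 for miR-146a-5p, −1.26 to 1.37 for miR-146b-5p, −0.20 to 0.63 for miR-155-5p, −1.95 to −0.22 for miR-155-3p. In WT hypoxia minus WT normoxia it was −0.87 to 0.95 for miR-146a-5p, −0.75 to 1.75 for miR-146b-5p, −0.79 to 0.49 for miR-155-5p, −3.60 to 0.92 for miR-155-3p. In KO minus WT in hypoxia it was −1.06 to 1.50 for miR-146a-5p, −1.90 to 0.73 for miR-146b-5p, −0.30 to 0.63 for miR-155-5p, −2.07 to 2.45 for miR-155-3p. In KO minus WT in normoxia it was −1.39 to 0.43 for miR-146a-5p, −1.46 to 1.17 for miR-146b-5p, −0.84 to 0.44 for miR-155-5p, −0.85 to 0.73 for miR-155-3p. In mean KO minus WT it was −0.77 to 0.51 for miR-146a-5p, −1.02 to 0.29 for miR-146b-5p, −0.34 to 0.30 for miR-155-5p, −1.07 to 1.20 for miR-155-3p. In mean hypoxia minus normoxia it was −0.25 to 1.03 for miR-146a-5p, −0.38 to 0.94 for miR-146b-5p, −0.29 to 0.35 for miR-155-5p, −2.34 to −0.081 for miR-155-3p. In the interaction it was −0.58 to 1.98 for miR-146a-5p, −1.76 to 0.88 for miR-146b-5p, −0.27 to 1.01 for miR-155-5p, −2.01 to 2.51 for miR-155-3p. For the log2 ratios and the miR-146 sum the ranges were 0.011 to 0.50 for miR-146a-5p over miR-146b-5p in KO minus WT, −0.10 to 0.39 for miR-146a-5p over miR-146b-5p in hypoxia minus normoxia, −0.66 to 0.042 for miR-146b-5p over miR-146b-3p in KO minus WT, −0.012 to 0.77 for miR-146b-5p over miR-146b-3p in hypoxia minus normoxia, −0.26 to 1.06 for miR-155-5p over miR-146a-5p plus miR-146b-5p in KO minus WT, −0.92 to 0.38 for miR-155-5p over miR-146a-5p plus miR-146b-5p in hypoxia minus normoxia, −0.49 to 0.71 for miR-155-5p over miR-155-3p in KO minus WT, 0.64 to 1.84 for miR-155-5p over miR-155-3p in hypoxia minus normoxia, −0.84 to 0.094 for miR-146a-5p plus miR-146b-5p in KO minus WT, −0.17 to 0.81 for miR-146a-5p plus miR-146b-5p in hypoxia minus normoxia, with no call. The difference of number 2 minus number 1 kept its sign throughout, at 1.55 to 2.02 for miR-146a-5p, 2.38 to 2.59 for miR-146b-5p, −1.01 to −0.80 for miR-155-5p, −2.62 to −1.35 for miR-155-3p. It lost its call for miR-155-5p without an intensity trend (−0.92, adjusted p = 0.0582) and, without the pair of libraries, for miR-155-5p (−1.10) and miR-146a-5p (1.48), each at limma adjusted p = 0.0655. miR-155-3p gained a call with a pseudocount of 8 (−1.03), on the microRNA total (−2.35) and among microRNAs alone (limma adjusted p = 0.0358). It met the filter only through libraries numbered 1, where it is high, so these calls are not independent of the filter. Counts of features past the threshold moved as follows. For the numbers, 100 became 56 with no filter, 248 on the microRNA total, 32 without an intensity trend, 6 without the pair and 4 to 50 without 1 library. In WT hypoxia minus WT normoxia, 0 became 1 with a pseudocount of 8 or a mean of at least 50. KO minus WT in normoxia went to 2 without an intensity trend and to 1 to 2 when 1 library was left out, with 2 in the absence of WT hypoxia number 2. The mean KO minus WT, 2 in the report, became 85 on the microRNA total and 2 to 29 when 1 library was left out, with 29 in the absence of WT hypoxia number 2 and 4 in that of KO hypoxia number 2. The causes were not tested. The replicate numbers were not taken as pairs, since the labels do not state what they stand for. Differences between the numbers correlated between groups with r = 0.15 to 0.55 over features. With the number as a block, called features rose to 8 in WT hypoxia minus WT normoxia, 3 in the mean hypoxia minus normoxia and 91 in the mean KO minus WT, none of them a member arm. The smallest limma adjusted p of a member with the block was 0.218, for miR-146b-5p in the mean KO minus WT (−0.36). Depth limits the 3p arms, which held 0 to 22.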
